A study of Mus musculus with 6 samples.

Results

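Chromatin contact of NUP214 was compared between leukemia stem cells (LSCs) that carry 1 conditional Nup214 allele together with a Cre recombinase and LSCs that carry the allele without it. Nup214-HET LSCs came from Nup214fl/+,Tie2-Cre mice and control LSCs from Nup214fl/+ mice. Both groups had acute myeloid leukemia driven by the MLL-AF9 fusion oncogene, and both were sorted from bone marrow as lineage-negative, Sca-1-negative cells positive for c-Kit, CD16/32 and CD34. The members are the 4 peak lists titled as HET or FL LSCs (2 per group, of 6 lists in the series), which hold 46095 of the 47774 peaks on chromosomes 1 to 19, X and Y. The other 2 lists, from normal hematopoietic stem cells (HSCs; CD48-CD150+LSK cells of Nup214fl/+ mice without leukemia), serve below only as an added readout. Tie2-Cre is active in endothelial cells and in the blood lineages that derive from them, so the allele is not specific to the leukemia. No label ties a library to an animal. The p-values therefore only rank the difference between groups among rearrangements of these 4 libraries, whose differences may be technical. The labels give hematopoietic stem cell as the cell type of all libraries, and the groups were therefore taken from the titles.

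NUP214 is a subunit of the nuclear pore complex on its cytoplasmic face, where it takes part in the export of messenger RNA and proteins, and it is known in human leukemia as a partner in fusion genes. Several pore proteins are also found inside the nucleus at promoters and enhancers. In CUT&Tag an antibody, here against NUP214, directs a transposase that cuts and tags the DNA near its target, and a peak marks where tagged fragments pile up. No library without the antibody was analysed here, so transposase cutting unrelated to NUP214 cannot be told apart from NUP214 contact.

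The peak numbers behind every comparison were unequal. Nup214-HET libraries 1 and 2 held 5452 and 4681 peaks, and control libraries 1 and 2 held 25437 and 10525. A gene-end peak reached to within 1 kb of the first or last base of a protein-coding gene, a gene-body peak lay elsewhere in the span of a gene, and the rest were intergenic. A gene or region was called kept when all 4 libraries had a peak there, and lacking when both control libraries had one and neither Nup214-HET library did. Nup214-HET-only is the reverse of lacking. The files hold no read totals, so depth is unknown, and the absence of a peak means that none was called at the depth of that list.

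The 4 promoters that follow belong to genes of each kind: Camsap1 lacked its peak in Nup214-HET LSCs, Sf1 and Hdgfl2 kept theirs, and Abraxas2 had one in Nup214-HET LSCs alone. Each runs 5′ to 3′ along the gene from 250 bases before to 50 after its start, from RefSeq on GRCm38.p6 (the build of mm10). Capitals mark matches, on either strand, to 10 short sequences. CCGGAAG, letters bound by ETS factors, was found in 11.9% of all 17492 promoters of this length, and GCGCATG, bound by NRF1, in 4.88%. CCAAT, bound by NF-Y, was found in 39.2%, and GGGCGG, bound by Sp and KLF factors, in 46.3%. The E-box CACGTG was found in 7.91%, the CREB letters TGACGTC in 3.98% and the AP-1 letters TGACTCA in 4.56%. GATGGCG, bound by YY1, was found in 4.45%, TGTGGTT, bound by RUNX factors, in 4.83%, and TATAAA, the TATA box, in 13.3%.
Camsap1 (chr2:25983233-25983532, minus strand): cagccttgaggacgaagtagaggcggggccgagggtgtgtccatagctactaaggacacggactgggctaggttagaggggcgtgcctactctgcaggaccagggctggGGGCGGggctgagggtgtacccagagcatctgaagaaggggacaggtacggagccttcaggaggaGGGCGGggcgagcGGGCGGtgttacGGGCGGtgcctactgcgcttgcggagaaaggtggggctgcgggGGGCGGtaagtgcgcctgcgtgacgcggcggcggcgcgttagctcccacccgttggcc
Sf1 (chr19:6363440-6363739, plus strand): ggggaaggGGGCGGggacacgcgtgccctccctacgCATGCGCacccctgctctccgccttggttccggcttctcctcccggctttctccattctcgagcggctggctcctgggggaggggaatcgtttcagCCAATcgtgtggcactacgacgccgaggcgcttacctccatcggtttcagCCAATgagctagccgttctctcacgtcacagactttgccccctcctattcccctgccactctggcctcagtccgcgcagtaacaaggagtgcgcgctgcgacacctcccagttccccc
Hdgfl2 (chr17:56079381-56079680, plus strand): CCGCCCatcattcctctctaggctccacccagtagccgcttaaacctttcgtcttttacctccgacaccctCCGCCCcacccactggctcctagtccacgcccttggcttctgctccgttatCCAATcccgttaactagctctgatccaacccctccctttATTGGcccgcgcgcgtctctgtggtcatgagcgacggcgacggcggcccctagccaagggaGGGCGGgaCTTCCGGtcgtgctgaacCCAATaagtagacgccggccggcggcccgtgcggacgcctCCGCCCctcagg
Abraxas2 (chr7:132858975-132859274, plus strand): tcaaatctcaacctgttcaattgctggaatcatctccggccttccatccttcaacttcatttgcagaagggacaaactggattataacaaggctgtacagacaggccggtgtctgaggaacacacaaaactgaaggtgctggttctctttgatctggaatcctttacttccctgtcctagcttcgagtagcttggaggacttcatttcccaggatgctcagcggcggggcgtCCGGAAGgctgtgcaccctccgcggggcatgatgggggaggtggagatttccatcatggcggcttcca
The Camsap1 promoter holds GGGCGG at 5 places and none of the other letters. The Sf1 promoter holds CCAAT at 2 places, and the Hdgfl2 promoter holds it at 3 on both strands together. The Abraxas2 peaks start at 132859214 and 132859212 in Nup214-HET libraries 1 and 2, so most of its printed stretch, with nearly all of the marked letters, lies before them. That stretch holds CCGGAAG once and has a GC content of 52.3%, against 68.0% for Camsap1, 64.3% for Sf1 and 64.0% for Hdgfl2.

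At gene ends, about as many genes called in both control libraries were without a Nup214-HET peak as had one in at least 1 Nup214-HET library, and very few genes were called in Nup214-HET LSCs alone. A gene-end peak was called in both control libraries at 4655 protein-coding genes, or 21.3% of 21887. Of these, 1273 were kept (5.82% of all genes), 1020 had a peak in 1 of the Nup214-HET libraries and 2362 were lacking (10.8% of all genes). Only 17 genes (0.0777%) were Nup214-HET-only. Taken from the other side, 86.0% of the 1480 genes called at an end in both Nup214-HET libraries were also called in both control libraries. At gene ends, the genes called in both Nup214-HET libraries were thus largely among those of control LSCs, whose lists were longer. With all lists cut to the 4681 peaks of the lowest q value, this share was 72.7% at gene ends. By gene-body peak it was 61.3% with the lists as deposited and 30.2% after the cut.

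The Nup214-HET lists recurred less well between libraries than the control lists did, which bears on every count of lacking genes. With all 4 lists cut to the 4681 peaks of the lowest q value, 39.5% of the peaks of Nup214-HET library 1 overlapped a peak of Nup214-HET library 2. The shares that overlapped control libraries 1 and 2 were 40.0% and 35.6% for Nup214-HET library 1, and 33.4% and 30.5% for Nup214-HET library 2. In control LSCs, 65.9% of the peaks of library 1 overlapped a peak of library 2. The overlap between the Nup214-HET libraries was above 3 of these 4 shares and below that of library 1 with control library 1.

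The 10 lacking genes with the highest control peaks are named by rule: both control libraries had a gene-end peak in the equal-length lists, and neither full Nup214-HET list had any peak at an end or in the span. This stricter class held 852 genes. Peak heights below are fragments at the summit, recovered from the authors' p and fold columns. They are not scaled for depth, so they are compared within a library only. Gpbp1, which encodes a transcription factor that binds GC-rich promoters, led the class. Its peak (chromosome 13, 111489727 to 111490468 in control library 1) was absent from both Nup214-HET lists and held 173 and 68 fragments in control libraries 1 and 2, placing it at the 99.8 and 99.6 percentile of those lists. Tmem123, a membrane receptor gene, had 142 and 66 fragments in the control libraries and no peak in either Nup214-HET library. Camsap1, whose product caps and protects microtubule minus ends, had 154 and 36 fragments in the control libraries and no peak in either Nup214-HET library.

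The other named lacking genes were Ankrd50, Clic4, Pwwp3a, Eloa, Mafk, Tada1 and Tspan14. Eloa encodes elongin A, a subunit of a complex that promotes transcript elongation by RNA polymerase II, and Tada1 encodes a subunit of the SAGA histone acetyltransferase complex. Mafk encodes a small Maf protein, a DNA-binding partner of NF-E2 factors. Ankrd50 had 135 and 33 fragments in control libraries 1 and 2, and no peak in either Nup214-HET list. Tspan14, a tetraspanin gene, had 108 and 29 fragments in the control libraries, and no peak in either Nup214-HET list. All 10 lay at or above the 97.3 percentile in both control lists.

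The kept genes with the highest peaks had strong calls in all 4 libraries. Csnk1g2, encoding a casein kinase 1 isoform, had 116 and 109 fragments in Nup214-HET libraries 1 and 2, against 229 and 87 in control libraries 1 and 2. Sf1, encoding the splicing factor that binds the branch point, had 110 and 98 fragments in the Nup214-HET libraries, against 168 and 60 in the control libraries. Cic, which encodes the transcriptional repressor capicua, had 101 and 76 fragments in the Nup214-HET libraries, against 142 and 58 in the control libraries. Each of these values lay at or above the 98.7 percentile of its list.

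The remaining named kept genes were Lars2, Ccdc9, Hdgfl2, Ubxn6, Wipi1, Fzr1 and Izumo4. Fzr1 encodes Cdh1, an activator of the anaphase-promoting complex, and had 65 and 67 fragments in the Nup214-HET libraries, against 212 and 75 in the control libraries. Hdgfl2 and Ubxn6 start on opposite strands from 1 shared promoter, and the same peak counted for both. It held 91 and 77 fragments in the Nup214-HET libraries, against 226 and 74 in the control libraries. The peak at Lars2, the mitochondrial leucyl-tRNA synthetase gene, lies in 1 of the 109 regions called in all 6 libraries, HSCs included, so it is not specific to LSCs.

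**Figure D1:**
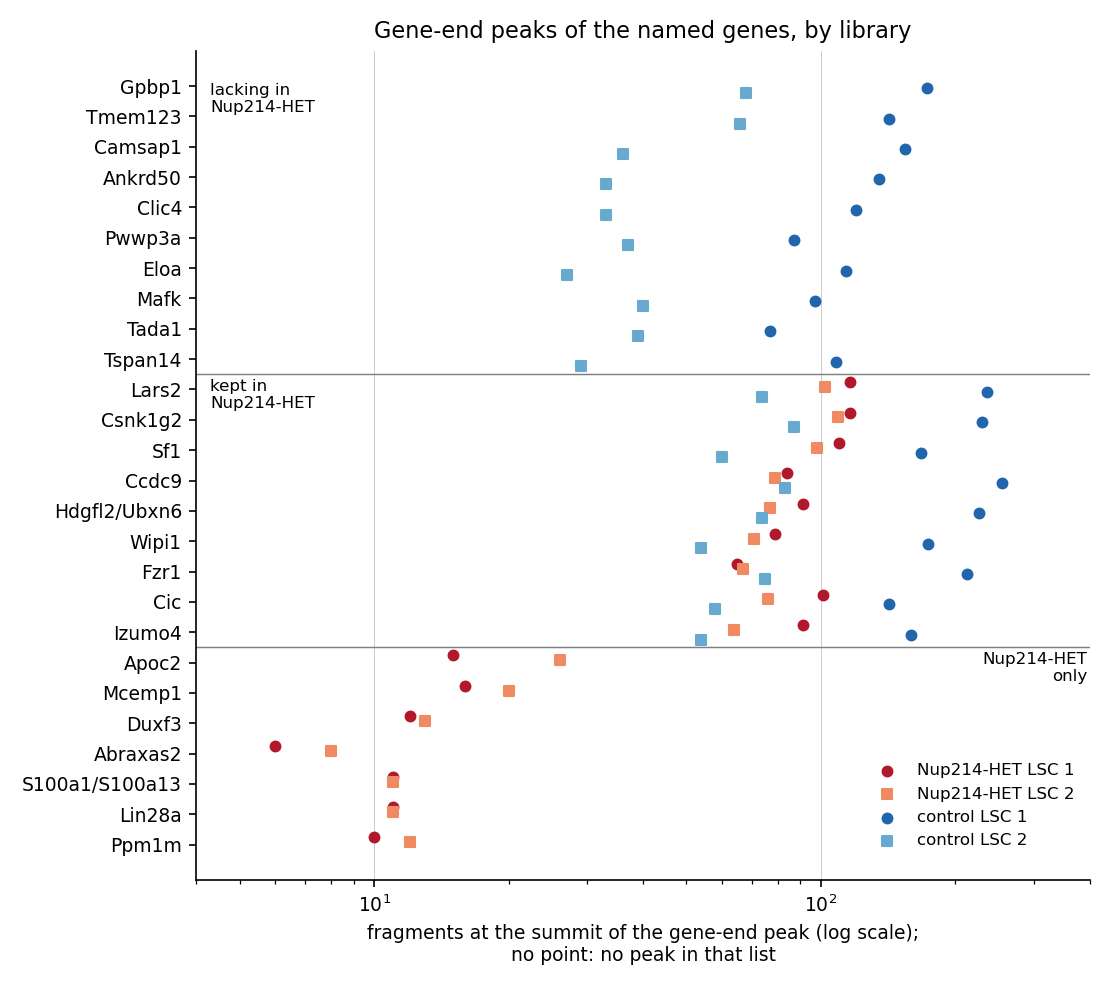
Fragments at the summit of the gene-end peak (log axis) of each named gene, 1 point per library, Nup214-HET libraries in red and orange and control libraries in blue; a missing point means that the list holds no peak there. Lacking genes have control points only, between 27 (Eloa) and 173 (Gpbp1), kept genes have all 4, and Nup214-HET-only genes have Nup214-HET points only, between 6 (Abraxas2) and 26 (Apoc2).

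Of the 17 Nup214-HET-only genes, 11 had no control peak anywhere in the gene. Their peaks were low. Apoc2, an apolipoprotein gene, had 15 and 26 fragments in Nup214-HET libraries 1 and 2, at the 56.8 and 87.5 percentile, and no peak in either control library. Mcemp1, a gene of mast cells and myeloid cells, had 16 and 20 fragments in the Nup214-HET libraries and no control peak. Abraxas2, a subunit gene of the BRISC deubiquitinase, had 6 and 8 fragments in the Nup214-HET libraries and no control peak. Duxf3, Lin28a, Ppm1m and the neighbours S100a1 and S100a13, which share 1 peak, had 10 to 13 fragments in each Nup214-HET library and no control peak. Duxf3 belongs to a repeated gene array, where reads are hard to place.

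The other Nup214-HET-only genes had control peaks in the gene outside the 1 kb windows. Cflar, which encodes c-FLIP, an inhibitor of caspase-8 activation, had the highest Nup214-HET-only gene-end peak, with 26 and 35 fragments in Nup214-HET libraries 1 and 2. Neither control library had a gene-end peak at Cflar, but control libraries 1 and 2 had 1 and 2 peaks inside its span. Grn, the progranulin gene, had 14 and 16 fragments at its gene end in the Nup214-HET libraries and none called there in the control libraries, which each had 1 peak in its span. At Cflar the places overlapped. The Nup214-HET peaks spanned 58711934 to 58712766 and 58712125 to 58712741 on chromosome 1, and the highest control peaks in its span ran from 58712512 to 58712788 and from 58712512 to 58712733. The Nup214-HET peaks reached into the 1 kb window and the control peaks did not, so Cflar is not a gene without control contact at that place.

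Whether a control region was kept followed its strength. Regions were formed by merging overlapping peaks of the 4 libraries, and those called in both control libraries were split in 5 equal sets by the mean percentile of their q value in the control lists. At gene ends, 3.65% of the weakest set were kept, then 8.63%, 16.4% and 29.0%, and 50.9% of the strongest. Gene-body regions gave 4.83%, 9.48%, 9.79%, 17.3% and 51.7% in the same order. Intergenic regions gave 6.26%, 8.72%, 13.2%, 15.5% and 51.3%. In the strongest set the 3 kinds of region were kept at nearly the same share, and their 95% Wilson intervals overlapped. In the second strongest set gene ends were kept more often, with an interval of 26.2% to 32.0%, against 12.8% to 23.03% for gene-body and 11.2% to 21.0% for intergenic regions. The intervals cover counting error only. Regions called in all 6 libraries, HSCs included, made up 38 of the 100 strongest control regions. They were 74 of 198 kept intergenic, 29 of 194 kept gene-body and 6 of 996 kept gene-end regions. Their part in the shares of the strongest set was not tested.

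**Figure D2:**
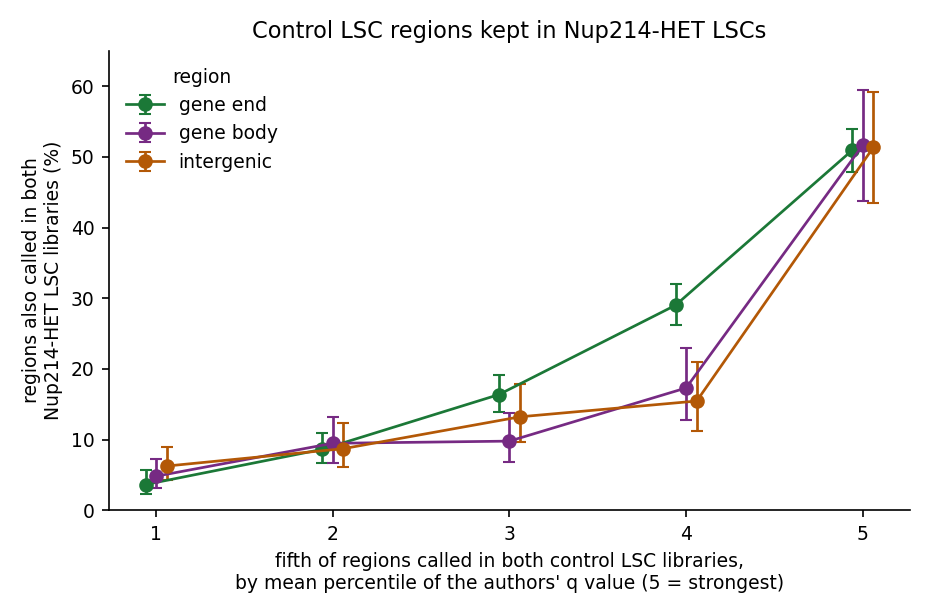
Share of regions called in both control LSC libraries that were also called in both Nup214-HET LSC libraries (y axis, percent), by set of control strength, weakest to strongest (x axis), for gene-end, gene-body and intergenic regions; bars are 95% Wilson intervals. The share climbs from 3.65% to 50.9% at gene ends and reaches 51.7% in gene bodies and 51.3% between genes.

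Peak width moved with the calls as well. The narrowest peaks of Nup214-HET libraries 1 and 2 spanned 320 and 329 bp, against 145 and 143 bp in control libraries 1 and 2. Among regions called in both control libraries, 1516 had no control peak as wide as 320 bp, and 3.43% of these were kept. Of the 5143 with a wider control peak, 25.98% were kept. Narrow control regions made up 22.3% of the lacking gene-end regions, 40.9% of the lacking gene-body regions and 43.7% of the lacking intergenic regions. The part of peak width in the lacking calls was not tested.

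Gene bodies and the space between genes kept fewer of their control regions. Of 1407 gene-body regions called in both control libraries, 194 were kept (13.8%; 1.64% of all gene-body regions) and 1046 were lacking (74.3%; 8.87% of all). Of 1366 intergenic regions, 198 were kept (14.5%; 1.62% of all) and 1003 were lacking (73.4%; 8.21% of all). At gene ends, 996 of 3886 regions were kept (25.6%; 10.7% of all gene-end regions) and 2089 were lacking (53.8%; 22.3% of all). Nup214-HET-only regions numbered 59 in gene bodies (0.5% of all), 64 between genes (0.524%) and 14 at gene ends (0.15%). Set against the regions called in both Nup214-HET libraries, these are 16.7% of 354, 18.3% of 349 and 1.2% of 1166.

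Counted by gene, a peak in the gene body was called in both control libraries at 8.4% of the 21887 genes. It was lacking at 1042 genes (4.76%), kept at 317 (1.45%) and Nup214-HET-only at 56 (0.256%). With the ends and the span combined, 29.1% of genes were called in both control libraries, 3039 were lacking (13.9%), 1711 were kept (7.82%) and 46 were Nup214-HET-only (0.21%). Gene bodies thus held more Nup214-HET-only genes than gene ends did, from fewer called genes. This count takes a peak anywhere in the gene body, so the peaks of the Nup214-HET libraries need not be at the same place. By body peak, the median gene length was 117.9 kb for Nup214-HET-only, 101.7 kb for kept and 57.6 kb for lacking genes. It was 17.2 kb for all genes. The part of gene length in these counts was not tested.

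The strongest lacking gene-body regions were also called in normal HSCs. Chl1, a neural cell adhesion gene, held such a region (chromosome 6, 103649048 to 103649329). It had no Nup214-HET peak and 531 and 296 fragments in control libraries 1 and 2. Flt1, which encodes a VEGF receptor, had no Nup214-HET peak and 331 and 110 fragments in the control libraries. Regions in Ttc21b (chromosome 2, 66189206 to 66189514) and Lama1 (chromosome 17, 67741362 to 67741640) had 178 and 162 fragments in control library 1 and 58 and 36 in control library 2. All 4 regions were called in both HSC lists and were under 320 bp wide. In all, 25 regions were called in both control and both HSC libraries and in neither Nup214-HET library, and in 16 of them no control peak was as wide as 320 bp. Iffo2, encoding an intermediate-filament-like protein, was the first named lacking gene-body region outside the HSC lists, with no Nup214-HET peak and 135 and 37 fragments in control libraries 1 and 2.

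The strongest kept gene-body regions, in Smo, Ppp1r9a, Tmem267, Cdk8 and Cmss1, were all called in all 6 libraries. Smo, the Hedgehog signal transducer gene, had 516 and 421 fragments in Nup214-HET libraries 1 and 2, against 344 and 115 in control libraries 1 and 2. Cdk8, encoding the Mediator kinase, had 104 and 95 fragments in the Nup214-HET libraries, against 245 and 77 in the control libraries. Regions shared by every library were few at gene ends, where 6 of 996 kept regions were of this kind, and more common among the kept regions in gene bodies (29 of 194) and between genes (74 of 198). HSC library 1 overlapped 13.5% of the kept and 0.479% of the lacking gene-end regions, and HSC library 2 overlapped 0.703% and 0.0957%. In gene bodies the shares for HSC library 1 were 24.7% of the kept and 1.63% of the lacking regions, and for HSC library 2 14.9% and 0.956%. Between genes they were 48.0% and 2.89% for HSC library 1, and 39.4% and 1.89% for HSC library 2.

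Of the 8 strongest kept gene-body regions outside the HSC lists, 7 lay between 1.11 and 3.40 kb from a gene end and 1 lay 18.4 kb from it. These were chosen after their values were seen. Zbtb7a, which encodes a repressor of fetal globin genes that also acts in blood lineage choice, had a region 1.79 kb from its end. It held 50 and 50 fragments in Nup214-HET libraries 1 and 2, against 183 and 47 in control libraries 1 and 2. Hnrnpl, encoding a splicing regulator, had 61 and 37 fragments in the Nup214-HET libraries, against 96 and 39 in the control libraries, 1.66 kb from its end. Clec11a, a gene for a growth factor of bone marrow progenitors, had 39 and 40 fragments in the Nup214-HET libraries, against 121 and 37 in the control libraries, 1.11 kb from its end. Sin3a, the scaffold gene of a histone deacetylase complex, had 64 and 73 fragments in the Nup214-HET libraries, against 135 and 36 in the control libraries. An annotated internal start lay within 1 kb of 37.6% of the 194 kept gene-body regions, 19.1% of the 1046 lacking ones and 3.39% of the 59 Nup214-HET-only ones.

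Nup214-HET-only regions away from gene ends held fewer fragments than the named kept ones. In Trip11, a Golgi protein gene, the region held 26 and 15 fragments in Nup214-HET libraries 1 and 2, at the 90.5 and 80.2 percentile, and no control peak. In Me1, the cytosolic malic enzyme gene, it held 11 and 25 fragments in the Nup214-HET libraries and no control peak, and it lay at the 94.8 percentile of library 2. Plaur, the urokinase receptor gene of myeloid cells, held 16 and 14 fragments in the Nup214-HET libraries 1.54 kb from its end, and no control peak. Between genes, the highest Nup214-HET-only region lay 32.7 kb from Scaf8, a gene for a protein that binds RNA polymerase II. It held 32 and 29 fragments in the Nup214-HET libraries, at the 95.01 and 94.08 percentile, and no control peak, and it was called in both HSC lists. The lacking region 15.4 kb from Adgre5, which encodes the leukocyte receptor CD97, had no Nup214-HET peak and 467 and 154 fragments in control libraries 1 and 2, and it was called in both HSC lists. The kept intergenic region 29.3 kb from Rpusd4, a gene for a mitochondrial RNA-modifying enzyme, was called in all 6 libraries and had 1017 and 1076 fragments in the Nup214-HET libraries, against 401 and 285 in the control libraries.

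With lists of equal length, the gene-end shares of the groups lay apart, while with the lists as deposited they overlapped. As deposited, gene-end peaks made up 37.5% and 35.4% of the Nup214-HET lists, against 35.3% and 39.4% of the control lists (means 36.4 ± 1.45% and 37.4 ± 2.90%; SD, n = 2 each). The exact two-sided permutation test over libraries gave p = 1.0. Gene-body peaks made up 29.3% and 30.0% of the Nup214-HET lists, against 33.1% and 29.0% of the control lists (exact permutation p = 1.0). Intergenic peaks made up 33.2% and 34.5% of the Nup214-HET lists, against 31.5% and 31.5% of the control lists, with an exact permutation p of 0.33. That is the smallest p that 2 libraries against 2 allow, so no such comparison can pass 0.05.

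Cut to 4681 peaks, gene-end peaks made up 42.0% and 35.4% of the Nup214-HET lists, against 68.7% and 56.1% of the control lists (exact permutation p = 0.33). Gene-body peaks made up 28.1% and 30.0% of the Nup214-HET lists, against 17.0% and 21.0% of the control lists. Intergenic peaks made up 29.9% and 34.5% of the Nup214-HET lists, against 14.3% and 22.9% of the control lists. In each of the 3 kinds the groups did not overlap, and each gave an exact permutation p of 0.33. The cut keeps the whole list of Nup214-HET library 2 and most of that of library 1, and only the top of each control list, so it sets nearly whole lists against the strongest control peaks. Gene-end peaks ranked highest in the Nup214-HET lists too, with a median percentile of 69.5 and 69.6 as deposited, against 71.4 and 68.3 in the control lists.

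**Figure D3:**
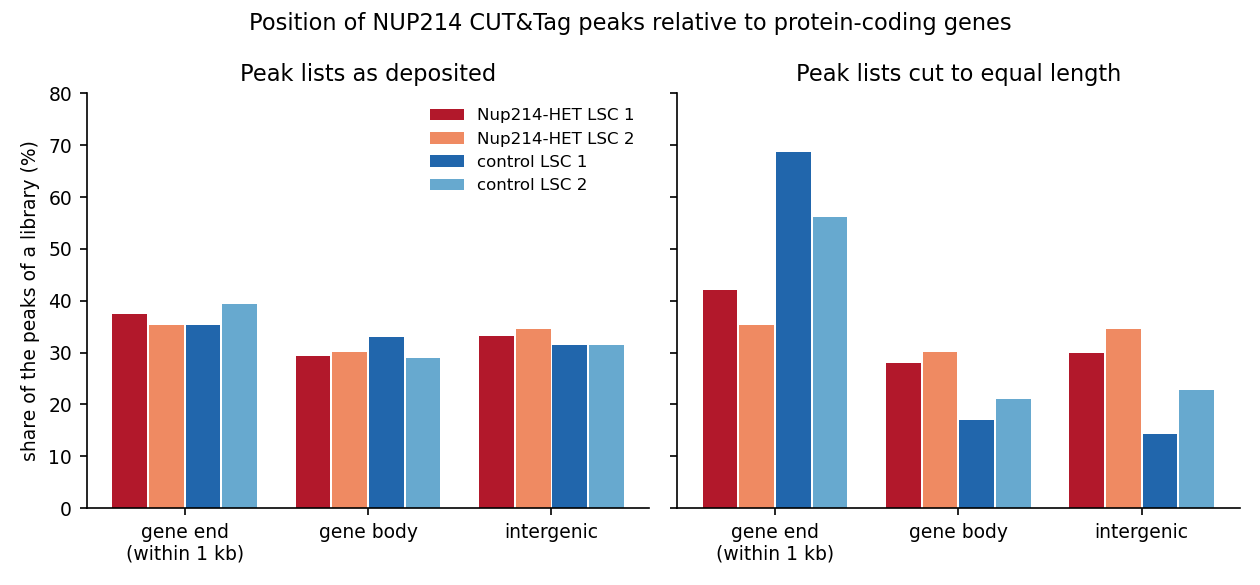
Share of a library's peaks (y axis, percent) at gene ends, in gene bodies and between genes, 1 bar per library, with Nup214-HET libraries left of control libraries; the left panel uses the lists as deposited and the right panel the 4681 peaks of the lowest q value. Gene-end and gene-body shares of the groups overlap on the left, and on the right gene-end shares are 42.0% and 35.4% in Nup214-HET LSCs, against 68.7% and 56.1% in control LSCs.

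Equal-length lists also changed which genes counted. A gene-end peak was lacking at 959 genes (4.38%), kept at 1070 (4.89%, all of them kept as deposited) and Nup214-HET-only at 186 (0.85%). Of the 959, 946 were also lacking with the lists as deposited. Of the 186, 60 were called at an end in both full control lists, 109 in 1 of them and 17 in neither. Examples of genes that were kept as deposited and Nup214-HET-only at equal length were Men1, encoding menin, the partner that brings MLL fusions to chromatin, and Eed, encoding a core subunit of the polycomb complex PRC2. Men1 had 23 and 19 fragments in Nup214-HET libraries 1 and 2, against 26 and 7 in control libraries 1 and 2. Eed had 15 and 8 fragments in the Nup214-HET libraries, against 25 and 7 in the control libraries. By gene, a body peak was lacking at 218 genes (0.996%), kept at 147 (0.672%) and Nup214-HET-only at 260 (1.19%), with 2.09% of genes called in both control lists. With ends and span together, 1086 genes were lacking (4.96%), 1288 were kept (5.88%) and 404 were Nup214-HET-only (1.85%). By body peak, Nup214-HET-only genes outnumbered lacking ones at this list length, while by region lacking ones were more numerous. The count by gene takes peaks anywhere in the gene body, while a region is formed from overlapping peaks.

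Among gene-end regions the equal-length lists gave 853 lacking (19.7%), 843 kept (19.5%) and 153 Nup214-HET-only (3.53%). In gene bodies they gave 252 lacking regions (7.59%), 126 kept (3.79%) and 171 Nup214-HET-only (5.15%). Between genes they gave 235 lacking (6.4%), 118 kept (3.21%) and 172 Nup214-HET-only (4.68%).

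Gene functions were described with lists of genes, by how many of the genes called in both control libraries were kept or lacking. Over all 4655 such genes, 27.3% were kept and 50.7% were lacking, and their median percentile in the control lists was 78.7. Stronger regions were kept more often, so the lists are not alike in this respect. No list was tested against another. With the lists as deposited, splicing factor and hnRNP, histone, DNA replication and chromatin genes stood above the overall kept share, and ribosomal, zinc finger, RNA helicase, interferon and p53 genes below it. At equal length the kept share was 39.9% over all 2682 genes called in both control lists. Of the lists with at least 10 genes called as deposited, 3 changed sides of the overall share. Mitochondrial ribosomal genes were then above it (7 of 16, 43.8%), and heat shock genes (13 of 36, 36.1%) and genes of the anaphase-promoting complex, cyclins and Cdks (4 of 16) were below it.

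Of 55 splicing factor and hnRNP genes with a control gene-end peak, 29 were kept (52.7%) and 14 were lacking (25.5%), with a median percentile of 85.4. Srsf2, encoding a serine- and arginine-rich splicing factor mutated in human myeloid neoplasms, had 40 and 34 fragments in Nup214-HET libraries 1 and 2, against 77 and 20 in control libraries 1 and 2. Hnrnpa2b1, which packages and sorts nascent RNA, had 32 and 35 fragments in the Nup214-HET libraries, against 110 and 27 in the control libraries. Hnrnpk, a nucleic-acid-binding regulator, had 37 and 22 fragments in the Nup214-HET libraries, against 84 and 14 in the control libraries. The subunits of U2AF, which recognises the end of introns, differed: U2af2 was kept, with 36 and 24 fragments in the Nup214-HET libraries, against 126 and 28 in the control libraries. U2af1 had no Nup214-HET peak and 44 and 11 fragments in the control libraries. Sf3b1, the core U2 component, also had no Nup214-HET peak and 45 and 9 fragments in the control libraries.

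Replication-dependent histone genes, which are clustered and switched on in S phase, had the highest kept share among lists with at least 10 genes called in both control libraries. Of 36 with a control gene-end peak, 22 were kept (61.1%) and 6 were lacking (16.7%), at a median percentile of 81.6. Neighbouring histone genes shared peaks: the kept genes rested on 13 regions and the lacking ones on 5. Their sequences are nearly identical, so reads may be placed at the wrong copy. The peak shared by H3c1 and H4c1 held 41 and 33 fragments in Nup214-HET libraries 1 and 2, against 96 and 44 in control libraries 1 and 2. H4c4 had no Nup214-HET peak and 33 and 11 fragments in the control libraries.

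Of 25 DNA replication genes, 12 were kept (48.0%) and 8 were lacking (32.0%), at a median percentile of 82.1. Pcna, the sliding clamp gene, had 39 and 42 fragments in Nup214-HET libraries 1 and 2, against 93 and 22 in control libraries 1 and 2. Mcm4 and Mcm7, which encode subunits of the replicative helicase, were kept, and so were the origin licensing genes Cdc6 and Cdt1. Mcm7 had 32 and 25 fragments in the Nup214-HET libraries, against 61 and 15 in the control libraries. Mcm10, Pole and Rpa1 were lacking: in control libraries 1 and 2 Mcm10 had 19 and 6 fragments, Pole 23 and 6 and Rpa1 22 and 4, all lower than Pcna.

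Of 47 chromatin remodeler and histone modifier genes, 19 were kept (40.4%) and 15 were lacking (31.9%), at a median percentile of 85.5. Kept genes included the H3K4 methyltransferase genes Kmt2b, Kmt2c and Kmt2d, the related gene Kmt2e, the remodeler gene Smarca5 and the acetyltransferase gene Kat7. Kmt2e had 44 and 47 fragments in Nup214-HET libraries 1 and 2, against 98 and 35 in control libraries 1 and 2. Kat7 had 32 and 34 fragments in the Nup214-HET libraries, against 59 and 13 in the control libraries. Ezh1 and Ezh2, the polycomb methyltransferase genes, were lacking, and Ezh2 had no Nup214-HET gene-end peak and 25 and 8 fragments in the control libraries. Nup214-HET library 2 had a peak inside Ezh2. Chd4, the remodeler gene of the NuRD complex, had no Nup214-HET peak and 47 and 9 fragments in the control libraries. In gene bodies, 12 genes of this list were lacking and 7 were kept, while of all 1839 genes with a body peak in both control lists 56.7% were lacking and 17.2% were kept. Dnmt3a, a DNA methyltransferase gene mutated in human leukemia, had no Nup214-HET peak in its body and 7 and 4 peaks in control libraries 1 and 2.

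Rab GTPase genes, regulators of vesicle traffic, were kept at 13 of 30 (43.3%) and lacking at 11 (36.7%), with the high median percentile of 89.4. Ubiquitin conjugating and deubiquitinating enzyme genes were kept at 13 of 36 (36.1%) and lacking at 18 (50.0%), at a median percentile of 82.2. Nucleoporin genes, the family of NUP214 itself, were kept at 5 of 15 (33.3%) and lacking at 7 (46.7%), at a median percentile of 78.4. Nup98, also a fusion partner in leukemia, had 28 and 30 fragments in Nup214-HET libraries 1 and 2, against 109 and 29 in control libraries 1 and 2. Nup88, encoding the binding partner of NUP214 in the pore, had 7 and 10 fragments in the Nup214-HET libraries, against 30 and 7 in the control libraries. The Nup214 gene had a gene-end peak, of 34 fragments, in control library 1 alone, and such a peak measures neither the dose nor the expression of the gene.

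Protein synthesis genes were mostly near or below the overall kept share. Cytoplasmic ribosomal protein genes were kept at 9 of 46 (19.6%) and lacking at 20 (43.5%), at a median percentile of 76.7. They differed between the Nup214-HET libraries, with a gene-end peak at 30 of 81 genes in library 1 and at 12 in library 2, against 70 and 46 in control libraries 1 and 2. Over all 21887 genes the counts in that order were 2524, 2076, 9485 and 4800. Set against all 81 ribosomal genes, 11.1% were kept and 24.7% were lacking. These shares were above the 5.82% and 10.8% of all protein-coding genes. Rps19, mutated in Diamond-Blackfan anemia, had 37 and 34 fragments in the Nup214-HET libraries, against 67 and 23 in the control libraries. Rpsa, encoding a small-subunit protein, had no Nup214-HET peak and 48 and 9 fragments in the control libraries. Mitochondrial ribosomal protein genes were kept at 7 of 30 (23.3%), translation initiation factor genes at 8 of 30 (26.7%), aminoacyl-tRNA synthetase genes at 3 of 18 (16.7%) and RNA helicase genes at 4 of 22 (18.2%). Their median percentiles, in that order, were 77.2, 86.8, 69.5 and 81.5. C2H2 zinc finger genes named Zfp were kept at 19 of 89 (21.3%) and lacking at 56 (62.9%), at the lower median percentile of 70.1.

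Of 13 interferon and antiviral response genes, 0 were kept and 10 were lacking (76.9%), but their control peaks were weak, with a median percentile of 50.4. Stat2, an interferon signal transducer gene, was among the lacking genes. Irf1, an interferon-induced transcription factor gene, had no Nup214-HET peak and 56 and 13 fragments in control libraries 1 and 2, placing it at the 94.1 and 76.1 percentile of those lists. Of 10 p53 target genes, 1 was kept and 6 were lacking, at a median percentile of 86.4, above that of all genes. Gadd45a, a growth arrest gene, had no Nup214-HET peak and 63 and 20 fragments in the control libraries. Mdm2, the p53 ubiquitin ligase gene, had no Nup214-HET peak and 21 and 11 fragments in the control libraries. Rrm2b, a ribonucleotide reductase subunit gene, was kept, with 9 and 8 fragments in the Nup214-HET libraries, against 49 and 17 in the control libraries. Cdkn1a, encoding the cell cycle inhibitor p21, was kept in its gene body, with 19 and 19 fragments in the Nup214-HET libraries, against 56 and 18 in the control libraries.

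**Figure D4:**
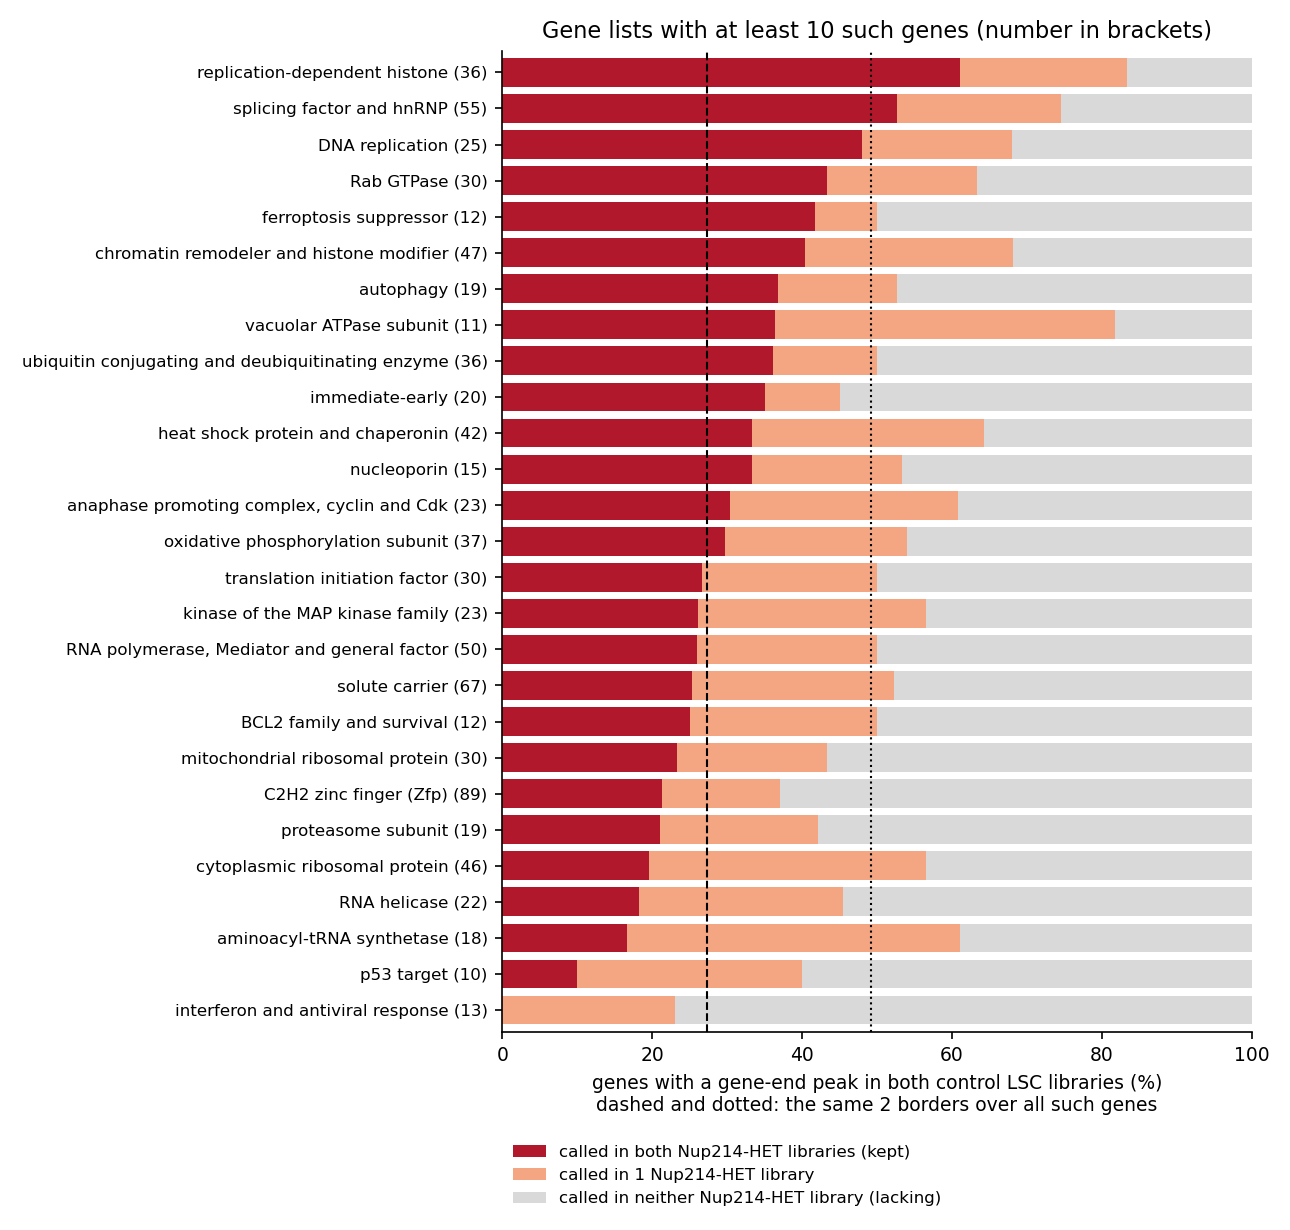
For each gene list with at least 10 genes called at an end in both control lists (number in brackets), the share of those genes (x axis, percent) called in both, in 1 or in neither of the Nup214-HET LSC libraries. The dashed line marks the kept share of all such genes (27.3%) and the dotted line where their lacking share (50.7%) begins; histone (61.1%), splicing (52.7%) and DNA replication (48.0%) genes lie highest and interferon genes lowest, at 0.

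Stress and growth response genes were mixed. Immediate-early genes, which are switched on within minutes of a stimulus, were kept at 7 of 20 (35.0%) and lacking at 11 (55.0%), at a median percentile of 79.9. The 3 Jun family genes, which encode AP-1 subunits, were kept. Jund had 60 and 37 fragments in Nup214-HET libraries 1 and 2, against 149 and 43 in control libraries 1 and 2. Jun had 23 and 21 fragments in the Nup214-HET libraries, against 120 and 41 in the control libraries. Atf3, a stress-induced transcription factor gene, had no Nup214-HET gene-end peak and 32 and 9 fragments in the control libraries. Heat shock protein and chaperonin genes were kept at 14 of 42 (33.3%) and lacking at 15 (35.7%), at a median percentile of 85.1. Among these chaperone genes, Hspa8 had 44 and 35 fragments in the Nup214-HET libraries, against 136 and 35 in the control libraries. Hsp90aa1 had no Nup214-HET gene-end peak and 66 and 19 fragments in the control libraries. Both lists thus held kept and lacking genes.

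Ferroptosis, an iron-dependent cell death by lipid peroxidation, is named in the title of the series. Of 12 ferroptosis suppressor genes with a control gene-end peak, 5 were kept (41.7%) and 6 were lacking (50.0%), at a median percentile of 77.0. Kept were Atf4, Ftl1, Nfe2l2, Slc3a2 and Vkorc1l1, and lacking were Dhodh, Gss, Nfs1, Nqo1, Pcbp2 and Sqle. Nfe2l2, encoding the antioxidant regulator NRF2, had 42 and 28 fragments in Nup214-HET libraries 1 and 2, against 102 and 27 in control libraries 1 and 2. Slc3a2, encoding a chain of the cystine transporter, had 20 and 9 fragments in the Nup214-HET libraries, against 56 and 13 in the control libraries. Dhodh, a mitochondrial enzyme gene of pyrimidine synthesis, had no Nup214-HET peak and 39 and 9 fragments in the control libraries. Gpx4, encoding the peroxidase that reduces lipid peroxides, had no Nup214-HET gene-body peak and 2 and 1 such peaks in control libraries 1 and 2, the highest of 62 and 13 fragments. Fth1, the ferritin heavy chain gene, kept a gene-body peak, with 14 and 16 fragments in the Nup214-HET libraries, against 48 and 10 in the control libraries. Of 6 ferroptosis driver genes, 2 were kept and 2 were lacking.

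Lists of leukemia and blood identity genes differed in how often both control libraries had a gene-end peak. The share was 12.5% for MLL-AF9 target, 11.8% for granulocyte-monocyte and 32.0% for blood stem cell transcription factor genes. Over all protein-coding genes it was 21.3%. Of 24 MLL-AF9 target genes, 3 had a gene-end peak in both control libraries, and all 3 (Lgr4, Msi2 and Runx1) were lacking. Their control peaks were weak, at a median percentile of 49.2. In gene bodies, Mef2c, Meis1 and Runx1 were kept and Cpeb2, Jmjd1c and Runx2 were lacking. Meis1, the homeobox partner of HOXA9, had 1 and 1 body peaks in Nup214-HET libraries 1 and 2, against 3 and 2 in control libraries 1 and 2. Runx1, a master transcription factor of blood formation, had 1 and 1 body peaks in the Nup214-HET libraries, against 12 and 3 in the control libraries. A gene counts as kept in its body when each library has a peak there, which need not be at the same place. At Mef2c the highest body peaks of all 4 libraries overlapped. At Meis1 the body peaks of Nup214-HET libraries 1 and 2 started at 18895059 and 18949931 on chromosome 11. At Runx1 they started at 92705113 and 92697518 on chromosome 16. Neither Meis1 nor Runx1 thus had a body region shared by both Nup214-HET libraries.

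Of 8 blood stem cell transcription factor genes with a control gene-end peak, Nfe2 and Zfpm1 were kept and 5 were lacking, among them Etv6, Hhex, Myc and Runx1. The median percentile of the 8 was 82.8. By body peak, 0 of the 25 genes in this list were lacking and 5 were kept (Etv6, Fli1, Meis1, Prdm16 and Runx1). Over all genes, 4.76% were lacking and 1.45% were kept by body peak. The body peaks of the 5 genes need not be at the same place in each library. These genes span 121 to 321 kb, against a median of 17.2 kb for all genes, and the part of length was not tested. At equal length Etv6, Fli1 and Prdm16 were Nup214-HET-only by body peak. Meis1 and Runx1 were then called in both Nup214-HET libraries but only 1 control library. With the ends and the span combined, 2 of the 25 were lacking and 8 were kept, against 13.9% and 7.82% of all genes. Zfpm1, encoding the GATA partner FOG1, had 42 and 32 fragments in Nup214-HET libraries 1 and 2, against 144 and 36 in control libraries 1 and 2. Nfe2, a factor of platelet-forming cells, had 19 and 18 fragments in the Nup214-HET libraries, against 113 and 39 in the control libraries. Of 4 granulocyte-monocyte genes, the GM-CSF receptor gene Csf2ra was kept and Cebpa, Csf2rb and Mpo were lacking. Csf2ra had 45 and 48 fragments in the Nup214-HET libraries, against 181 and 51 in the control libraries.

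Markers of cell types gave at most 2 genes per list that were called at an end in both control libraries. Of 16 markers of LSCs or granulocyte-monocyte cells, Cebpa and Mpo had one (12.5%). Every marker list, this list included, lay below the 21.3% of all protein-coding genes. The peaks do not measure expression, and these counts are therefore no check of the sorted cell type. None of 8 HSC markers or 6 B cell markers had a gene-end peak in both control libraries, and among 8 T and NK cell markers 1 had one (Cd3d, kept). The erythroid, megakaryocyte and endothelial or stromal lists gave 1 marker each. None of 1110 olfactory receptor genes, which are silent in blood, had a gene-end peak in both control libraries, and 3 and 4 had one in Nup214-HET libraries 1 and 2, against 8 and 2 in control libraries 1 and 2.

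Gene-end peaks were at transcription starts in both groups. Among genes with strand information, 94.0% and 93.5% of the gene-end peaks of Nup214-HET libraries 1 and 2 were within 1 kb of an annotated start, against 91.6% and 94.3% in control libraries 1 and 2. Summits lay just upstream of the start, at a median of -61 and -73 bp in the Nup214-HET libraries, against -50 and -67 bp in the control libraries. They were more spread in Nup214-HET LSCs. The window from 250 bp before to 50 bp after the start held 53.9% and 50.7% of the summits within 1 kb in the Nup214-HET libraries, against 70.4% and 71.2% in the control libraries. The groups did not overlap. Peaks were also wider in Nup214-HET LSCs, with a median of 435 and 454 bp, against 274 and 212 bp in control LSCs, and the part of width in the spread was not tested.

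**Figure D5:**
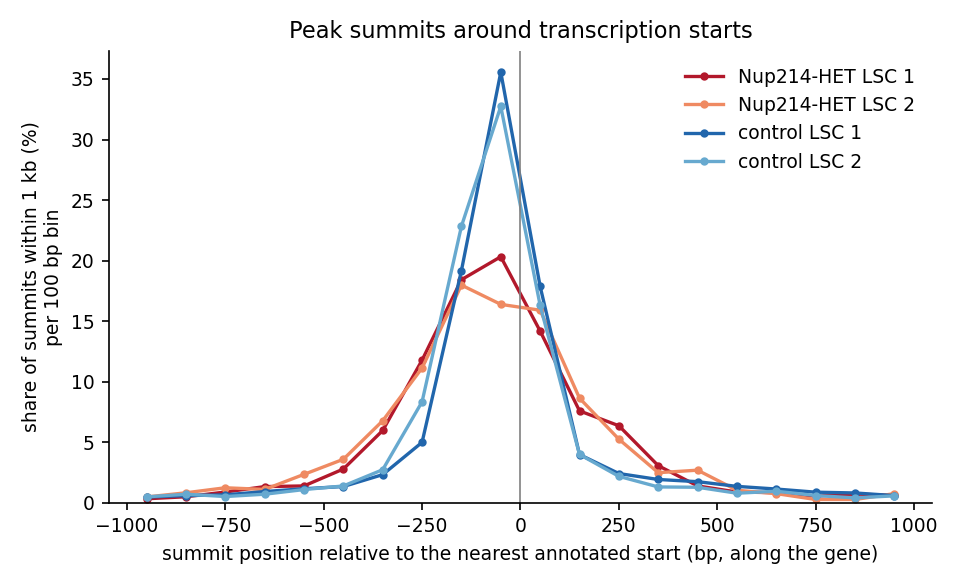
Position of peak summits relative to the nearest annotated transcription start (x axis, bp along the gene) as the share of a library's summits within 1 kb (y axis, percent per 100 bp), 1 line per library. Both control lines peak just upstream of the start at 35.6% and 32.7%, and the Nup214-HET lines are flatter, at 20.3% and 16.4% in the same bin.

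Regions where genes start on both strands were kept more often. Of 476 gene-end regions called in both control libraries with starts on both strands within 1 kb, 38.7% were kept and 37.2% were lacking. Of 2692 with starts on 1 strand, 24.4% were kept and 54.7% were lacking. The median control percentile was 80.1 and 79.3 for these sets, which are close to each other. Of 718 regions with no annotated start in reach, 21.6% were kept, at a lower median percentile of 73.1. A region merges the peaks of the 4 libraries, so a kept region includes its Nup214-HET peaks. Region width was not compared between these sets, and its part in the kept shares was not tested.

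Lacking and kept promoters were much alike in base composition and differed in few short sequences. The median GC content of the 300-base promoter was 62.0% for 1927 lacking genes and 62.7% for 1089 kept genes, with 23 and 24 CpG sites, against 56.3% and 13 sites over all 17492 genes with a promoter sequence. The 17 Nup214-HET-only genes had a median of 55.0% and 10 sites. CCAAT, the letters bound by NF-Y and seen above in Sf1 and Hdgfl2, was in 44.8% of lacking and 52.6% of kept promoters, against 39.2% of all. GGGCGG, seen above in Camsap1, Sf1 and Hdgfl2, was in 71.2% of lacking and 75.02% of kept promoters, against 46.3% of all. TATAAA was in 4.46% of lacking and 7.53% of kept promoters, against 13.3% of all. TGTGGTT, the core letters for RUNX factors, was in 3.84% of lacking and 1.56% of kept promoters, against 4.83% of all. CCGGAAG was in 20.8% of lacking and 19.7% of kept promoters, against 11.9% of all. With lists of equal length, the median GC content was 63.3% for both 796 lacking and 921 kept genes. GGGCGG was then in 75.9% of lacking and 76.1% of kept promoters, and CCAAT in 49.6% and 54.2%. In the same order, TATAAA was in 4.52% and 7.06%, TGTGGTT in 4.27% and 1.63%, and CCGGAAG in 21.4% and 19.1%. The GGGCGG difference was thus nearly absent at equal length. All these shares describe letters in a window and were not tested.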

How the data were processed

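CUT&Tag peak lists of 4 LSC libraries were analysed, 2 Nup214-HET and 2 control. Reads were processed with FastQC 0.11.5, Bowtie2 2.2.9, MACS2 and ChIPseeker on mm10, per the submitters' processing notes; MACS2 settings, the handling of duplicates and any control: not given in the sources used here. The authors called peaks per library. Their deposited columns hold a score, a fold enrichment (a linear ratio over local background), −log10 p, −log10 q and another value, the offset of the summit from the peak start. These folds and q values are the authors' own and rank peaks within 1 list only. All 4 LSC lists end near the same q of 0.05, and why they differ in length was not tested. The depth behind them is unknown.

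Only chromosomes 1 to 19, X and Y were used. Peaks were assigned to 21887 protein-coding genes of a RefSeq table of GRCm38.p6 within 1000 bp of an end. Overlap meant at least 1 bp in common. Equal lists held the 4681 peaks of the lowest q. Percentiles rank the −log10 q within a list. Summit fragments were recovered from fold and −log10 p for at least 99.98% of the peaks of each LSC list, by the formula of MACS2, which the labels do not state. Strand and promoters came from RefSeq for 17492 genes. Shares were compared by exact permutation over libraries. Overlap and classification were tested on simulated lists. Named genes have the highest mean percentile in the libraries that define a class, with predicted genes (Gm and Rik symbols) set aside. Members, lists and rules were chosen with earlier results of these data known. Analyses used Python 3.11.15, numpy 2.4.6, pandas 2.3.3 and scipy 1.17.1. Some genes of the lists are not reported here by name.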

Additional observations from a re-analysis of the deposited data

Results flagged for a closer look

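Peaks on unplaced scaffolds, which enter no comparison above, numbered 30 and 30 in Nup214-HET LSC libraries 1 and 2, against 52 and 42 in control LSC libraries 1 and 2. They were listed because they lie outside the chromosomes compared.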

How the results depend on the processing

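The replicate numbers are tied to no animal, batch or day. With the number as a replicate block the differences in share were -0.95, -1.41 and 2.36 percentage points for gene-end, gene-body and intergenic peaks. These equal the unpaired values by arithmetic, so the block could change only the p-values. The exact permutation p was 1.0, 1.0 and 0.5, the last being the smallest that 2 pairs allow. Of 116 values under other settings, 7 differences in share reversed and 21 counts moved by over 1.5 times. The other 88 were differences that kept their direction or counts within 1.5 times. They include the differences with the replicate block, which could not change. Some differences that kept their direction changed much in size: at equal length the gene-end one was -23.7 and the intergenic one 13.7 percentage points. The gene-end share difference (Nup214-HET minus control, percentage points) was 2.02 with peaks of −log10 q of at least 2, 0.18 with a 500 bp window, and -3.003 to 1.104 when each library was left out, where it reversed without Nup214-HET library 2 (0.077) and without control library 2. The gene-body difference was 10.1 at equal length, and -3.45 to 0.62 with a library left out, reversing without control library 1. The intergenic difference was -0.32 with the q limit. At equal length, 959 genes lacked a gene-end peak and 186 were Nup214-HET-only. There were 252 lacking and 126 kept gene-body regions, and 235 lacking and 118 kept intergenic regions. Nup214-HET-only genes numbered 10 with 200 bp around the summit and 11 with annotated starts, a setting chosen after seeing the data. Kept intergenic regions numbered 125 with 200 bp around the summit, 122 with all annotated genes and 124 without regions of all 6 libraries. Leaving out a library gave 2497 to 6515 lacking, 1274 to 1960 kept and 18 to 206 Nup214-HET-only genes. It gave 1110 to 7632 lacking and 209 to 298 kept gene-body regions, and 1077 to 7305 lacking intergenic regions. The highest lacking counts came without control library 2, and the 206 without control library 1. The cause was not tested, beyond the shorter lists and fewer libraries of these settings. Unknown depth limits every call of absence.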
